A study of Mus musculus with 7 samples.

Results

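The 38 protein-coding Hox genes of the mouse Hoxa, Hoxb, Hoxc and Hoxd clusters were examined in whole embryos with and without SLMAP3. They were taken by symbol (Hox, a cluster letter and a paralog number) from the 25461 genes for which the authors deposited expression values, and they comprised 11 Hoxa, 9 Hoxb, 9 Hoxc and 9 Hoxd genes. Hoxb13 was not analysed here. RNA had been sequenced from 7 single embryos of the B6C3F1 strain at embryonic day 11.5, 3 KO and 4 WT, with no pooling and without a treatment. The KO embryos were homozygous for an Slmap allele that had lost exon 3, an exon set between loxP sites. The deletion had been made in the germline with CMV-cre, and the line was then bred free of cre. This allele removes the SLMAP3 isoform in every tissue and leaves the shorter SLMAP isoforms. Tails had been cut off for genotyping, so the most caudal tissue was missing from every embryo. The labels give the embryos a series number of 8, 9 or 10. KO embryo 1 and WT embryo 1 came from series 8, WT embryo 3 from series 9, and KO embryos 2 and 3 and WT embryos 2 and 4 from series 10. The labels do not say whether a series is a litter.

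Hox genes encode homeodomain transcription factors that give cells along the head to tail axis their regional identity. They lie in clusters in which genes with low paralog numbers are expressed first and furthest towards the head, and genes with high numbers later and nearer the tail, an order known as colinearity. Low numbers are known for hindbrain and neck, middle numbers for the thorax, and high numbers for the lumbar, sacral and tail regions, and the high numbers of Hoxa and Hoxd are also used in the limb buds and genital tubercle. On GRCm38, the Hoxa cluster lies at chr6:52155590-52260880 on the minus strand. The other clusters are on the plus strand, Hoxb at chr11:96271457-96368256, Hoxc at chr15:102921103-103036852 and Hoxd at chr2:74668310-74765142.

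Slmap, the targeted gene, was measured first. Its level was 19.6, 16.0 and 16.6 FPKM (fragments per kilobase, corrected for library depth) in KO embryos 1 to 3, and 31.2, 23.9, 29.1 and 22.8 FPKM in WT embryos 1 to 4. The KO values all lay below the WT values, with a log2 fold change of -0.59 (SE 0.13, limma, adjusted p = 0.278) and an exact permutation p of 0.0286, the smallest that 3 against 4 embryos can give. The gene-level value sums all SLMAP isoforms, so it does not measure SLMAP3 alone. Here and below, the values of an embryo are given in the order KO 1, 2 and 3 and then WT 1, 2, 3 and 4, and n is 3 KO and 4 WT.

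In the WT embryos the Hox genes summed to 356, 386, 366 and 347 FPKM. Members with numbers 1 to 4 held 33.7% of this sum, those with numbers 5 to 8 held 41.3%, and those with numbers 9 to 13 held 25.0%. By cluster, the share was 30.6% for Hoxa, 35.6% for Hoxb, 18.1% for Hoxc and 15.7% for Hoxd. Hoxb3, a gene of hindbrain and neck, was the member with the highest level, at 27.1 ± 1.68 FPKM (SD, n = 4) in WT. The highest members of the other clusters were Hoxa5, which patterns the neck and the lung, at 21.0 ± 0.54, Hoxc6, a gene of the brachial and thoracic region, at 18.8 ± 3.22, and Hoxd3, a neck gene, at 18.1 ± 2.04 FPKM. Levels were lower at higher paralog numbers in the Hoxc cluster (Spearman rho between number and WT level, -0.92 over 9 genes) but not in the other clusters (rho -0.02 for Hoxa over 11 genes, 0.47 for Hoxb and 0.02 for Hoxd over 9 genes each). These correlations are across genes of the same libraries, which are not independent, and are given as a description.

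**Figure D1:**
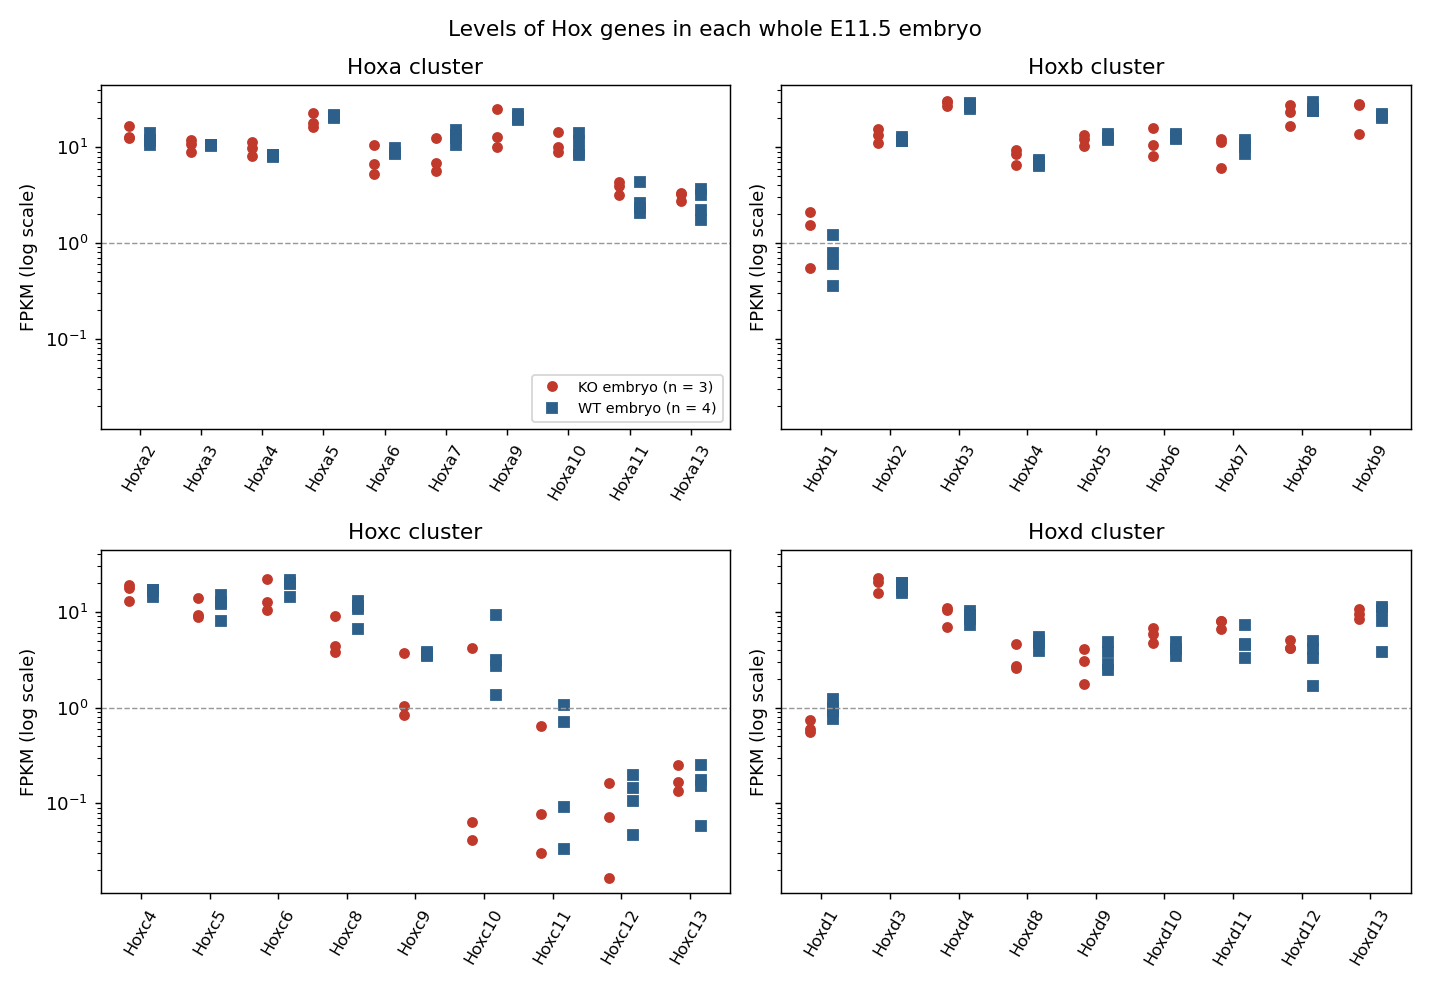
Level of 37 Hox genes in each embryo, in FPKM on a log axis, by cluster and paralog number (red circles, 3 KO embryos; blue squares, 4 WT embryos; dashed line, 1 FPKM). Hoxb3 reaches 30.7 FPKM, and Hoxc10 is at 0.0414 and 0.0647 FPKM in KO embryos 2 and 3 and at 1.34 FPKM or more in the other embryos.

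Among the WT embryos the members differed in how much they varied. The coefficient of variation over the 4 WT embryos was 1.81% for Hoxa3, 2.06% for Hoxa4 and 2.56% for Hoxa5. Its median was 9.78% for numbers 1 to 4, 13.7% for numbers 5 to 8 and 34.3% for numbers 9 to 13. The zones overlapped in this. Of numbers 9 to 13, Hoxc10 was at 84.6% and Hoxc11 at 105%, but Hoxb9 was at 3.41%, Hoxc9 at 3.91% and Hoxa9 at 6.15%, and Hoxb1, of the lowest numbers, was at 48.4%.

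The comparison of KO with WT embryos asked whether the loss of SLMAP3 was accompanied by another level of these regional genes. It was run with limma on log2(FPKM + 1) over the 16095 genes that averaged at least 1 FPKM, and 34 of the 38 Hox genes were among them. Hoxc11, Hoxc12, Hoxc13 and Hoxd1 averaged under 1 FPKM and were not tested, and Hoxb1, at 1.02 FPKM, was just inside. No Hox gene reached an adjusted p under 0.05, as against 6 of all genes tested (0.0373%). At an unadjusted p under 0.05, Hoxd10 and Hoxd11 were higher in KO (2 of 34, 5.88%, against 5.27% of all genes), and Hoxc8, Hoxa7, Hoxc9 and Hoxd8 were lower (4 of 34, 11.8%, against 6.19% of all genes). In none of the 34 did all KO values lie above all WT values (5.61% of all genes) or below them (5.98%). The median log2 fold change was 0.04 over the Hox genes tested, with 18 higher and 16 lower, and 0.01 over all genes. The median of the Hox genes thus lay close to that of all genes, and the shares at an unadjusted p were near those of all genes for the higher members and above them for the lower members. The count of 6 depended on single embryos. Without KO embryo 1 it was 10 of 33, all lower, where 8.75% of all genes passed in either direction. Without KO embryo 2 it was 7 of 34, all higher, where 16.4% of all genes passed, and without KO embryo 3 it was 0 of 33, where 7.80% did. It was 1, higher in KO, without WT embryo 1 (10.49% of all genes) or WT embryo 3 (7.85%). Without WT embryo 2 it was 3, all higher (9.50%), and without WT embryo 4 it was 4, 1 higher and 3 lower (9.96%). None of the 4 lower members passed without WT embryo 1, 2 or 3. Their log2 fold changes were then from -0.83 to -0.38, against -0.81 to -0.44 with all embryos. With all 7 embryos, 11.5% of all genes passed in either direction.

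**Figure D2:**
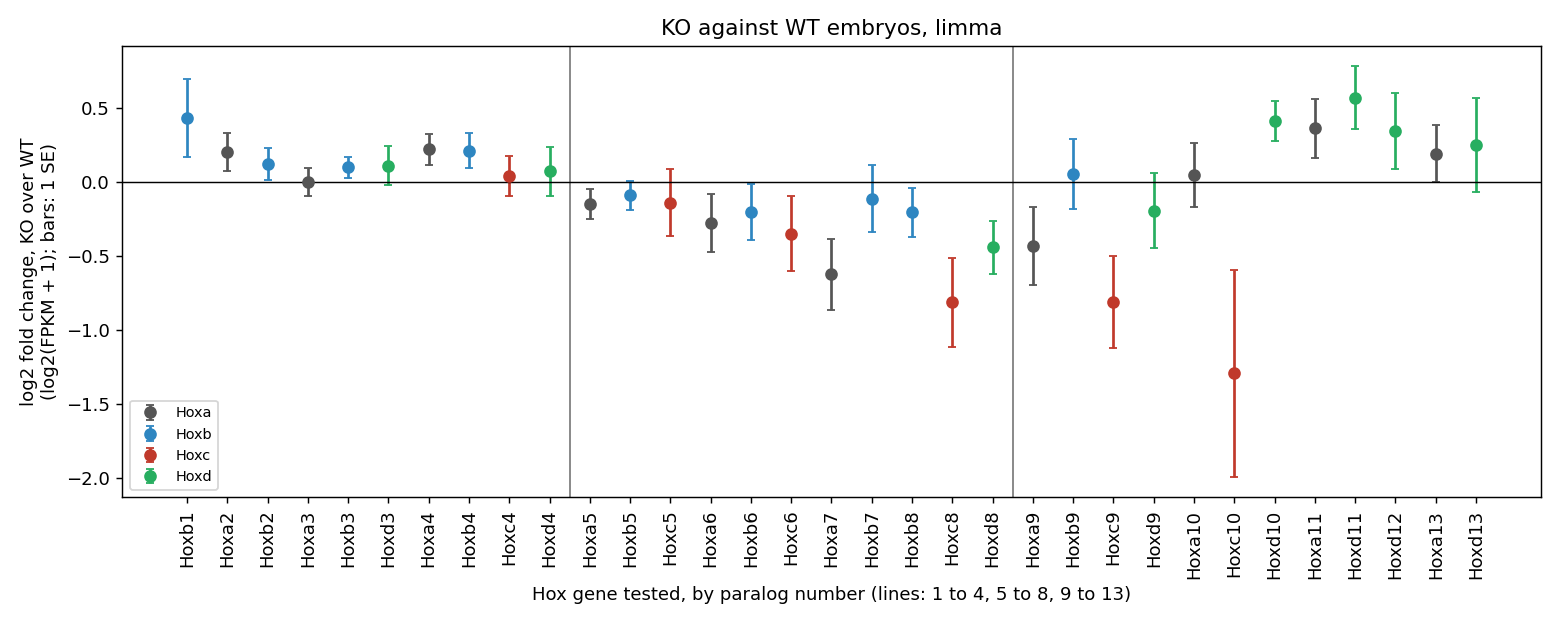
Log2 fold change of KO over WT embryos with its standard error for 33 of the Hox genes tested, ordered by paralog number and coloured by cluster (limma on log2(FPKM + 1), 3 KO and 4 WT embryos). All 11 genes with numbers 5 to 8 lie below 0, 9 of the 10 drawn with numbers 1 to 4 lie above it, and Hoxc10 is lowest at -1.29.

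The direction of the difference went with the paralog number. Of the genes with numbers 1 to 4, 10 of the 11 tested averaged higher in KO, with a median log2 fold change of 0.11 and none past the unadjusted threshold. Of those with numbers 5 to 8, 11 of 11 averaged lower, with a median of -0.21, 3 of them past it (27.3%, against 6.19% of all genes lower). Of those with numbers 9 to 13, 8 of 12 averaged higher, with a median of 0.12, and the exceptions were Hoxa9, Hoxc9, Hoxd9 and Hoxc10. In the Hoxb cluster, with all 7 embryos, Hoxb1 to Hoxb4 were above 0 and Hoxb5 to Hoxb8 below it, and 5 of 9 genes were higher. This count was 8 of 9 without KO embryo 2 and 3 of 8 without KO embryo 1 or KO embryo 3. The zones were set by paralog number with earlier results of these data known, the counts of direction were made after the values had been seen, and neighbouring genes of a cluster in the same embryos are not independent, so these counts carry no p. Without KO embryo 3, 6 of 10 genes with numbers 1 to 4 were higher, and without KO embryo 2, 8 of 11 with numbers 5 to 8 were lower. Without KO embryo 1, numbers 9 to 13 split into 6 higher and 6 lower. The medians also rested on single embryos. For numbers 1 to 4 the median was 0.0097 without KO embryo 3 and 0.25 without KO embryo 2. For numbers 5 to 8 it was -0.45 without KO embryo 1 and -0.059 without KO embryo 2. For numbers 9 to 13 it was 0.022 without KO embryo 1, 0.043 without WT embryo 4, 0.24 without WT embryo 2 and 0.25 without KO embryo 2. For these numbers it was also 0.045 with no filter (9 of 15 higher) and 0.054 with a minimum mean of 5 FPKM (4 of 5 higher).

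The KO embryos did not share this pattern equally. KO embryo 1 held 163 FPKM of Hox genes with numbers 5 to 8, KO embryo 2 held 94.3 and KO embryo 3 held 118, against 152, 152, 164 and 133 FPKM in the WT embryos. KO embryo 1 was thus within the WT range, and KO embryos 2 and 3 were below all 4 WT embryos. Over the same 11 genes, the median level relative to the WT mean was 108% in KO embryo 1, 58.2% in KO embryo 2 and 74.5% in KO embryo 3, and ran from 92.6% to 106% in the WT embryos. For numbers 1 to 4 the corresponding medians were 114%, 88.0% and 129% in the KO embryos and 97.5% to 104% in the WT embryos. KO embryo 1 had the highest value of the 7 embryos in 15 of the 34 genes tested and the lowest in 0, and KO embryo 2 had the lowest in 19 and the highest in 0. Accordingly, the total of the Hox genes was 422 FPKM in KO embryo 1, above the WT embryos, and 273 FPKM in KO embryo 2, below them, while KO embryo 3, at 357 FPKM, fell within their range.

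**Figure D3:**
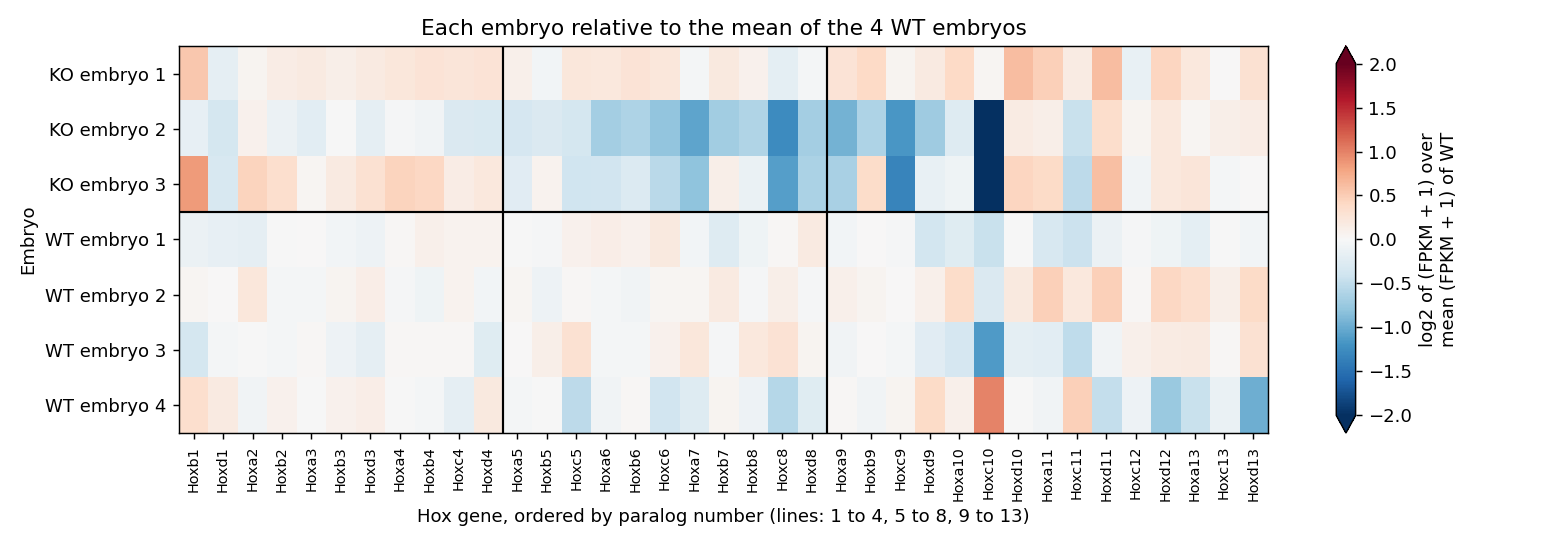
The level of 37 Hox genes in each embryo as log2 of FPKM + 1 over the mean of FPKM + 1 in the 4 WT embryos, ordered by paralog number, with the colour scale capped at 2 in either direction. KO embryos 2 and 3 are blue over most of numbers 5 to 8 and at Hoxc9 and Hoxc10, and KO embryo 1 is pale red over most genes.

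The middle paralogs were also read within each label series. In series 10, both KO embryos were below both WT embryos in 8 of the 11 genes with numbers 5 to 8 and above both in 0, with a median log2 difference of -0.42. The share of all genes separated in this way was not computed, so the count is a description only. In series 8, with 1 embryo of each genotype, the KO embryo was below the WT embryo in 3 of these 11 genes and above it in 8, with a median of 0.09. Series 8 gives 1 KO value without a spread, so the series cannot be told apart from KO embryo 1 itself. For numbers 1 to 4 the KO embryos furthest apart, KO embryos 2 and 3, were both from series 10. For numbers 1 to 4 the median log2 difference was 0.09 in series 10 and 0.17 in series 8, and for numbers 9 to 13 it was -0.03 and 0.49. Series 9 held a WT embryo only. With the series as a block in the fit, 4 of 34 Hox genes had an unadjusted p under 0.05, all lower in KO, where 8.69% of all genes passed in either direction. Series 8 and 10 each held as many KO as WT embryos. The block therefore gave the same fold changes as the fit without WT embryo 3, here and below, and only the p-values differed.

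Among the middle paralogs, Hoxc8, which specifies thoracic vertebrae and brachial motor neurons, had the largest difference. Its level was 9.0, 3.82 and 4.38 FPKM in KO and 10.73, 11.4, 13.1 and 6.70 FPKM in WT. KO embryos 2 and 3 were below every WT embryo, while KO embryo 1 lay between WT embryos 4 and 1. The log2 fold change was -0.81 (SE 0.30, limma, adjusted p = 0.395). Hoxa7, another gene of the thoracic region, stood at 12.5, 5.71 and 6.93 FPKM in KO and 12.4, 13.3, 15.2 and 10.67 FPKM in WT. Again KO embryos 2 and 3 lay below the WT range and KO embryo 1 inside it, with a log2 fold change of -0.62 (SE 0.24, limma, adjusted p = 0.403). Hoxd8, expressed in the trunk, was at 4.63, 2.61 and 2.70 FPKM in KO and 5.53, 4.71, 4.97 and 3.89 FPKM in WT (log2 fold change -0.44, SE 0.18, limma, adjusted p = 0.421). The same 2 KO embryos were below the WT range for this gene.

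Hoxa5 and Hoxc6, the most abundant members of their clusters, are also middle paralogs. Hoxa5 was at 22.6, 16.5 and 17.8 FPKM in KO and between 20.4 and 21.7 FPKM in WT, so that 1 KO embryo was above and 2 were below the narrow WT range (log2 fold change -0.15, SE 0.10, limma, adjusted p = 0.596). Hoxc6 was at 22.2, 10.4 and 12.6 FPKM in KO and at 21.6, 19.3, 19.9 and 14.1 FPKM in WT (-0.35, SE 0.25, adjusted p = 0.614). Without KO embryo 1 the log2 fold changes were -0.28 for Hoxa5 and -0.65 for Hoxc6, and without KO embryo 2 they were -0.059 and -0.14. The other 6 middle members, Hoxa6, Hoxb5, Hoxb6, Hoxb7, Hoxb8 and Hoxc5, had log2 fold changes from -0.28 to -0.09 and adjusted p-values from 0.609 to 0.869. Of these, Hoxb5 was the least different, and in Hoxb5 and Hoxb7 KO embryo 3 exceeded 3 of the 4 WT embryos.

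Hoxc10, Hoxc11 and Hoxc12 had the largest ratios of the highest to the lowest embryo among the 38 members. Hoxc9, beside them, holds the thoracic motor columns apart from the limb level ones. It was at 3.76, 1.04 and 0.836 FPKM in KO and at 3.52, 3.62, 3.44 and 3.77 FPKM in WT, a group with a coefficient of variation of 3.91%. KO embryos 2 and 3 had 29.0% and 23.3% of the WT mean and KO embryo 1 had 105%. The log2 fold change was -0.81 (SE 0.31, limma, adjusted p = 0.403). Without KO embryo 1 it was -1.24 with an adjusted p of 0.0232 (limma), the only Hox gene to pass in any of the 14 alternative fits. That fit leaves out the KO embryo in which the gene was at the WT level.

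Hoxc10, its neighbour, is known for lumbar motor neurons and the hindlimb. It was at 4.23, 0.0414 and 0.0647 FPKM in KO and at 2.74, 3.18, 1.34 and 9.21 FPKM in WT. Hence it was nearly missing from KO embryos 2 and 3, at 1.00% and 1.57% of the WT mean, and present in the other 5 embryos. If the FPKM of a gene is taken as proportional to its normalised count, whose mean over the embryos the authors deposited, these values stand for about 4.69 and 7.33 normalised counts, against 152 to 1044 in the WT embryos. The highest and the lowest embryo differed by 223-fold, but because KO embryo 1 lay within the WT range the log2 fold change of -1.29 had a standard error of 0.70 and an adjusted p of 0.516 (limma). This fold change was -2.06 without KO embryo 1, -0.33 without the 3 embryos that nearly lacked liver transcripts (described with the cell type markers) and -2.85 with a pseudocount of 0.1. Exons of Hoxc10 and Hoxc5 overlap in the annotation, and 6.40% of the 50-base stretches of Hoxc10 transcripts also occur in Hoxc5.

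Hoxc11, beside it, averaged under 1 FPKM and was at 0.650, 0.0779 and 0.0306 FPKM in KO and at 0.0913, 0.713, 0.0335 and 1.06 FPKM in WT. It was high in KO embryo 1, WT embryo 2 and WT embryo 4 and low in the other 4, so its highest and lowest levels, 34.6-fold apart, did not follow the genotype. Hoxc12 ran from 0.0167 to 0.20 FPKM and Hoxc13, a gene of hair and nails, from 0.0587 to 0.254 FPKM over the 7 embryos, with the KO and WT values interleaved. Of the 6 Hoxc genes tested, 5 averaged lower in KO, with a median log2 fold change of -0.58, which was -0.90 without KO embryo 1, -0.38 without KO embryo 2 and -0.31 without the 3 liver-poor embryos. With no filter on low values, 7 of 9 averaged lower, with a median of -0.21. With a minimum mean of 5 FPKM, 3 of 4 did, with a median of -0.25. The Hoxc genes of KO embryos 1, 2 and 3 had medians of 111%, 46.0% and 54.4% of the WT mean, with KO embryo 1 above the other 2. Of the 6 genes, Hoxc5, Hoxc6 and Hoxc8 are themselves middle paralogs.

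**Figure D4:**
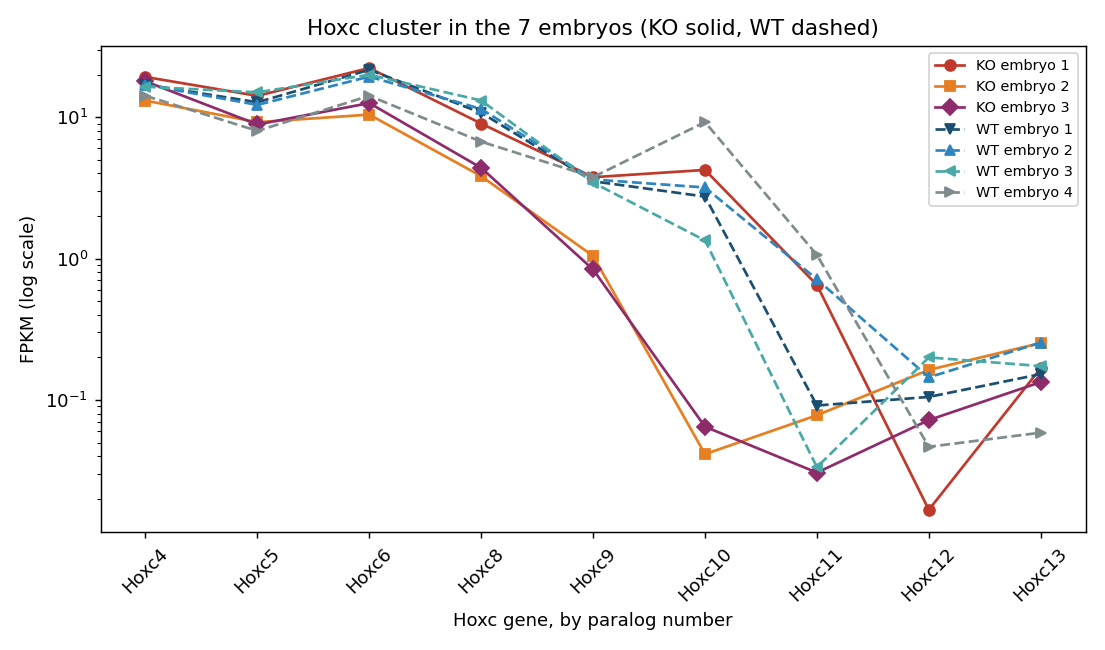
Level of the 9 Hoxc genes in each of the 7 embryos, in FPKM on a log axis (solid lines, KO; dashed lines, WT). KO embryo 1 runs with the WT embryos from Hoxc4 to Hoxc11, and KO embryos 2 and 3 lie below all WT embryos from Hoxc6 to Hoxc10, where they reach 0.0414 and 0.0647 FPKM.

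In the Hoxd cluster 6 of the 8 genes tested averaged higher in KO, with a median log2 fold change of 0.18. This median was 0.28 without WT embryo 2, 0.32 without the 3 liver-poor embryos and 0.11 over 9 genes with no filter. The 4 genes with the highest numbers, Hoxd10 to Hoxd13, were all higher, with a median of 0.38. Hoxd10, a gene of lumbar motor neurons and the limb bud, was at 6.84, 4.75 and 5.92 FPKM in KO and at 4.08, 4.89, 3.47 and 4.08 FPKM in WT. Only WT embryo 2 reached into the KO range. The log2 fold change was 0.41 (SE 0.13, limma, adjusted p = 0.355), and it had the smallest p of the 34 Hox genes. Hoxd11, which with Hoxa11 builds the forearm and the kidney, was at 8.1, 6.59 and 7.97 FPKM in KO and at 4.47, 7.29, 4.67 and 3.27 FPKM in WT (log2 fold change 0.57, SE 0.21, limma, adjusted p = 0.398). Here too, WT embryo 2 lay inside the KO range and the other WT embryos below it. With the series as a block, the log2 fold changes were 0.35 for Hoxd10 and 0.56 for Hoxd11, with unadjusted p-values of 0.0551 and 0.0878 (limma), no longer under 0.05. The fit without WT embryo 3 gave the same fold changes, with unadjusted p-values of 0.0419 and 0.0590 (limma). Unlike the Hoxc genes, Hoxd10 and Hoxd11 were above the WT mean in all 3 KO embryos, at 115% to 166% and at 134% to 164% of it. A predicted transcript, Gm28309, overlaps both genes on the same strand and shares 3.17% of the 50-base stretches of Hoxd10 and 9.85% of those of Hoxd11. Hoxd3, the most abundant gene of the cluster, was at 20.6, 15.9 and 22.4 FPKM in KO and at 16.8, 19.8, 15.9 and 19.8 FPKM in WT (0.11, SE 0.13, adjusted p = 0.775), with 60.3% of its 50-base stretches shared with other genes of the annotation.

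The genes at the 2 ends of the clusters are those with numbers 1 and 13. Hoxb1 marks the fourth segment of the hindbrain. Hoxb1 was at 1.52, 0.545 and 2.13 FPKM in KO and at 0.606, 0.785, 0.356 and 1.2 FPKM in WT (log2 fold change 0.43, SE 0.27, limma, adjusted p = 0.558), so that KO embryos 1 and 3 were above all WT embryos and KO embryo 2 was among them. This fold change was 0.72 without KO embryo 2 and 0.93 without the 3 liver-poor embryos. Hoxd1, of which a role in pain-sensing neurons is known, was the one member whose groups did not overlap. It was at 0.742, 0.552 and 0.593 FPKM in KO and at 0.758, 0.997, 0.928 and 1.23 FPKM in WT, and the gap between the groups was smaller than the spread within either. It was picked out because its groups did not overlap, so no test is given.

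Hoxa13 and Hoxd13 shape the digits and the genital tubercle. Hoxa13 was at 3.26, 2.78 and 3.35 FPKM in KO and at 2.22, 3.66, 3.19 and 1.72 FPKM in WT (log2 fold change 0.19, SE 0.19, limma, adjusted p = 0.719). Hoxd13 was at 10.6, 9.40 and 8.45 FPKM in KO and at 8.00, 11.2, 10.53 and 3.76 FPKM in WT (0.25, SE 0.32, adjusted p = 0.786; -0.05 without WT embryo 4). Both were present in every embryo, including the 2 KO embryos nearly without Hoxc10. WT embryo 4 had the lowest level of Hoxa13, Hoxd11, Hoxd12 and Hoxd13, and the highest level of Hoxc10 and Hoxc11. Among the lower numbers, Hoxb3 was at 29.4, 26.9 and 30.7 FPKM in KO and between 25.2 and 28.7 FPKM in WT (0.10, SE 0.07, adjusted p = 0.612; 0.055 without KO embryo 3 and 0.15 without KO embryo 2). Hoxa4, which helps to pattern the neck vertebrae, was at 9.74, 8.03 and 11.4 FPKM in KO and between 7.95 and 8.31 FPKM in WT (0.22, SE 0.11, adjusted p = 0.480), with KO embryos 1 and 3 above the WT range and KO embryo 2 inside it.

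A list of 10 limb bud genes was set beside the caudal Hox genes, since both are used in the limbs. Of these, 7 averaged higher and 3 lower in KO, with a median of 0.12. Of the 10, 1 was higher with an unadjusted p under 0.05, as were 5.27% of all genes. It was Shh, the signal of the posterior limb margin (0.52, SE 0.19, limma, adjusted p = 0.391). With the series as a block, Shh was at 0.40 with an unadjusted p of 0.0727 (limma), no longer under 0.05. Hand2, which acts ahead of Shh in the limb bud, was at 0.27 on the log2 scale (SE 0.13, adjusted p = 0.481), and Gli3, the most abundant of the list and the mediator of hedgehog repression, 0.13 (SE 0.07, adjusted p = 0.514). After the values had been seen, Tbx4 and Pitx1, which mark the hindlimb, and Tbx5, which marks the forelimb and the heart, were also looked at by embryo. Tbx4 was at 3.04, 1.69 and 1.73 FPKM in KO and at 1.66, 3.45, 2.08 and 3.76 FPKM in WT, highest in KO embryo 1, WT embryo 2 and WT embryo 4, the embryos in which Hoxc10 and Hoxc11 were highest. Pitx1 was highest in the same 3 embryos, at 17.2, 19.8 and 24.6 FPKM. Tbx5 was at 8.99, 9.61 and 10.04 FPKM in KO and at 8.18, 7.61, 8.49 and 1.81 FPKM in WT. It was lowest in WT embryo 4, in which Hoxd13 was also lowest. Of the 10 limb bud genes, 2 (Tbx5 and Fgf10) had all KO values above all WT values, as did 5.61% of all genes. For 1 of them (Grem1) all KO values lay below, as for 5.98% of all genes. The part of limb tissue in the levels of the caudal Hox genes was not tested.

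**Figure D5:**
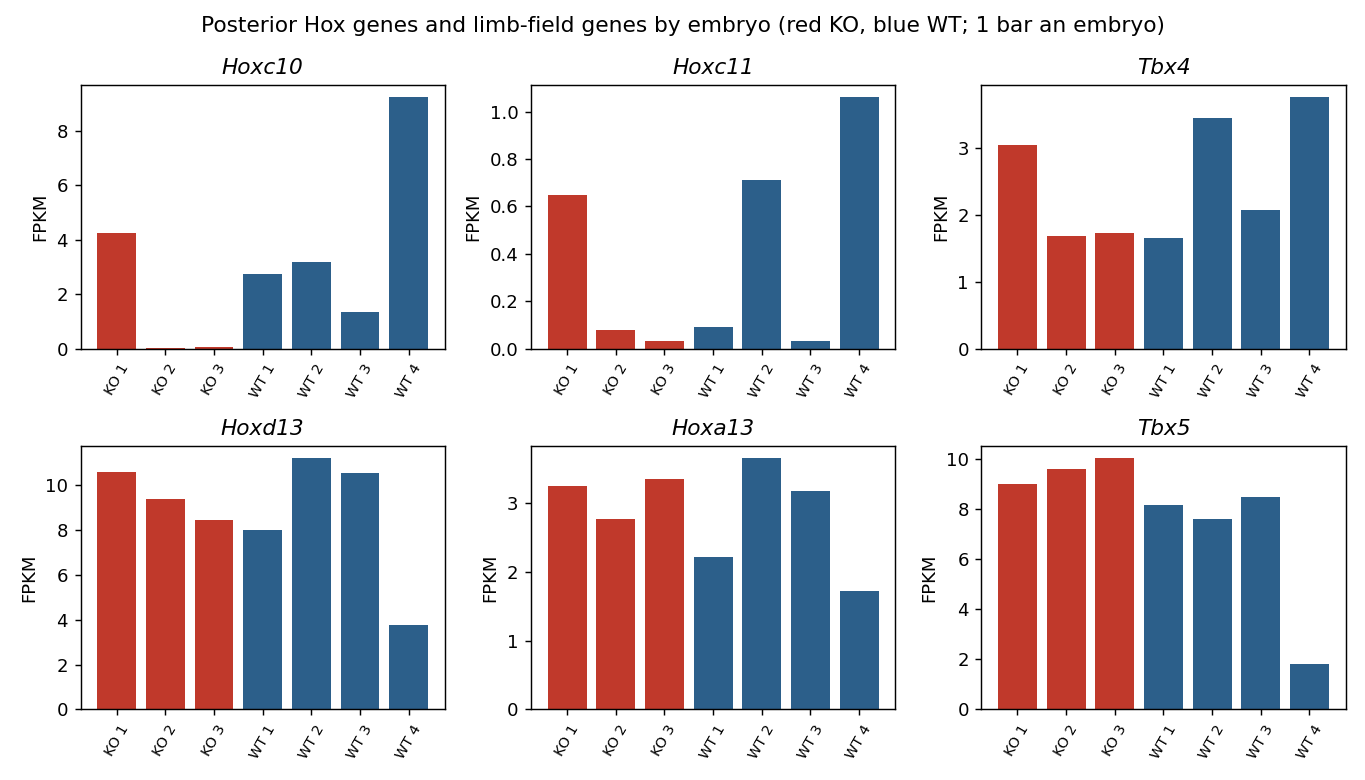
Level in FPKM of Hoxc10, Hoxc11 and Tbx4 (upper row) and of Hoxd13, Hoxa13 and Tbx5 (lower row) in each embryo, 1 bar an embryo, red for KO and blue for WT. The upper genes are highest in KO embryo 1, WT embryo 2 and WT embryo 4, and the lower genes are lowest in WT embryo 4.

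Axial Hox genes are switched on in the tail bud, where Wnt and FGF signals keep the axis growing. Of 17 tail bud and axial elongation genes, 10 were tested and all 10 averaged higher in KO, 5 with an unadjusted p under 0.05 (Wnt3a, Fgf8, Lin28a, Lin28b and Cyp26a1; 5.27% of all genes were higher at this threshold), with a median log2 fold change of 0.33. None passed after adjustment. Wnt3a was at 2.22, 2.00 and 2.23 FPKM in KO and at 1.64, 1.56, 1.52 and 1.63 FPKM in WT (0.29, SE 0.07, limma, adjusted p = 0.286), and Fgf8 at 5.11, 4.64 and 7.76 FPKM in KO and at 3.10, 3.25, 2.21 and 3.92 FPKM in WT (0.72, SE 0.19, adjusted p = 0.308). All 3 KO embryos were above the WT embryos for 5 genes of the list, these 2 among them, and in 5.61% of all genes. Both Wnt3a and Fgf8 are also expressed outside the tail bud, Wnt3a in the dorsal neural tube and Fgf8 at the midbrain border and in the limb and face. The genes that mark the tail bud itself were low in these embryos, whose tails had been cut off for genotyping. T was at 0.646 to 1.48 FPKM over the 7 embryos (0.02, SE 0.15, adjusted p = 0.968), Cdx1 at 0.0198 to 0.137 FPKM and Cdx2 at 0 to 0.347 FPKM. Cdx4 was not analysed here. Gdf11, which sets the step from trunk to tail and was the most abundant of the list, was at 14.8, 12.3 and 14.1 FPKM in KO and between 12 and 13.7 FPKM in WT (0.07, SE 0.08, adjusted p = 0.747).

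Hox proteins bind DNA together with TALE homeodomain partners. Of 9 TALE cofactor genes tested, 2 averaged higher and 7 lower in KO, with a median log2 fold change of -0.06. Meis1 was at 35.3, 31.4 and 35.9 FPKM in KO and at 37.3, 40.2, 38.3 and 40.0 FPKM in WT (-0.18, SE 0.06, limma, adjusted p = 0.361), the one of 9 with an unadjusted p under 0.05 (6.19% of all genes were lower at this threshold). Its KO values were all below the WT values by a small amount, as in 5.98% of all genes. Meis2 (-0.06, adjusted p = 0.733) and Pbx2, the most abundant (0.10, adjusted p = 0.463), differed by less. Without the 3 liver-poor embryos, Meis1 was at -0.08 and no longer had an unadjusted p under 0.05 (0.315, limma). Polycomb and Trithorax proteins keep Hox genes off or on, and 13 of 13 of their genes averaged higher in KO, with a median of 0.10. Only Ezh2, the histone methyltransferase of Polycomb, had an unadjusted p under 0.05, 1 of 13 against 5.27% of all genes (0.23, SE 0.09, adjusted p = 0.425), and Cbx2, a Polycomb subunit, came next (0.12, SE 0.06, adjusted p = 0.472). With the series as a block, Ezh2 was at 0.16 with an unadjusted p of 0.0833 (limma), no longer under 0.05.

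The front of the embryo expresses no Hox genes. Of 10 forebrain and midbrain genes, 6 averaged higher and 4 lower in KO, 2 with an unadjusted p under 0.05, both higher (5.27% of all genes). These were Otx2, at 23.7, 32.1 and 31.9 FPKM in KO and at 21.3, 20.4, 19.2 and 22.1 FPKM in WT (0.46, SE 0.11, limma, adjusted p = 0.286), and Otx1 (0.52, SE 0.18, adjusted p = 0.368), both needed for the forebrain and midbrain. Lhx2, the most abundant, was at -0.03 on the log2 scale (adjusted p = 0.927). The 2 KO embryos with the lowest levels of the middle Hox genes had the highest levels of Otx2, and KO embryo 1 was nearest to WT for both. In a whole embryo, fewer cells of a region and less RNA per cell cannot be told apart. None of the 3 hindbrain genes tested had an unadjusted p under 0.05, and Epha4, the most abundant, was at 0.07 (SE 0.05, adjusted p = 0.557).

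Cell type markers were read in the same libraries. The 6 liver genes, with Afp the most abundant, summed to 399, 9.96 and 482 FPKM in KO and to 720, 4.59, 547 and 7.25 FPKM in WT, so KO embryo 2 and WT embryos 2 and 4 were nearly without liver transcripts. Afp itself differed by 1.38 on the log2 scale (SE 2.34, limma, adjusted p = 0.847). These 3 embryos all came from series 10, so leaving them out keeps KO embryo 3 but no WT embryo of that series. It also leaves out KO embryo 2. Without KO embryo 2 alone, 7 of 34 Hox genes had an unadjusted p under 0.05, all higher (16.4% of all genes passed). Their median log2 fold change over the 34 was 0.17. Without the 3 liver-poor embryos, 9 of 34 Hox genes had an unadjusted p under 0.05. All 9 were higher in KO, where 10.78% of all genes passed in either direction. The median log2 fold change of the 34 Hox genes was then 0.23. The median was 0.29 for numbers 1 to 4, with 11 of 11 higher, and 0.29 for numbers 9 to 13, with 9 of 12 higher. Under the same fit, 10 of the 11 genes with numbers 5 to 8 averaged lower, but their median was -0.13 in place of -0.21 and, with 4 embryos left, none of Hoxc8, Hoxa7 and Hoxd8 kept an unadjusted p under 0.05 (0.0604, 0.141 and 0.114, limma). Their log2 fold changes were -0.81, -0.51 and -0.45, against -0.81, -0.62 and -0.44 with all embryos. KO embryo 3 was rich in liver transcripts and KO embryo 2 poor, and both were low in Hoxc8, Hoxc9 and Hoxc10. The 4 skeletal muscle markers were lower in KO, each with an unadjusted p under 0.05 (6.19% of all genes were lower at this threshold), led by Tnnt1 (-0.97, SE 0.17, adjusted p = 0.274) and Myog (-1.01, SE 0.26, adjusted p = 0.293). Myog was at 17, 18.3 and 8.24 FPKM in KO and between 24.2 and 33.8 FPKM in WT, and the muscle list, with Actc1 the most abundant, summed to 191 to 215 FPKM in KO and to 267 to 336 FPKM in WT. Of 3 primitive erythroid globins, Hbb-y, the most abundant, had an unadjusted p under 0.05 (-0.57, SE 0.15, adjusted p = 0.295), against 6.19% of all genes lower. Hbb-bh1 stood at 0.51 (SE 0.31, adjusted p = 0.555), and at 0.30 without WT embryo 3, 0.32 without KO embryo 3 and 0.80 without KO embryo 2. None of the 4 neuron markers had an unadjusted p under 0.05, with Stmn2 at -0.14 (SE 0.09, adjusted p = 0.562) and Tubb3, the most abundant, at -0.09 (SE 0.12, adjusted p = 0.790). The 3 trophoblast markers were at or below 0.841 FPKM. The part of these tissues in the Hox levels was not tested.

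The genes that flank the clusters gave 0 of 9 with an unadjusted p under 0.05, with 5 higher, 4 lower and a median of 0.01. Evx1, beyond Hoxa13, was at 2.02, 2.05 and 2.15 FPKM in KO and between 1.54 and 2.06 FPKM in WT (0.17, SE 0.09, limma, adjusted p = 0.532), and Evx2, beyond Hoxd13, was at 1.41 to 1.98 FPKM over the 7 embryos (0.01, SE 0.10, adjusted p = 0.981). Both encode homeodomain proteins related to the Hox family. Cbx5, a heterochromatin protein gene beside the Hoxc cluster and the most abundant of the flanks, differed by 0.03 (SE 0.06, adjusted p = 0.880), and Calcoco1, on the other side of that cluster, by -0.07 (SE 0.06, adjusted p = 0.687). The library kit does not mark the strand of a read. In the annotation, 16 of the 38 Hox genes share exon bases with another gene, 10 of them with one on the opposite strand, and for 9 at least 10% of their exon bases lie in another gene of the table. For Hoxb3, 51.4% of the 50-base stretches are shared with the antisense gene Hoxb3os, and for Hoxa11, 33.0% with Hoxa11os, so these levels may be divided between the partners. For Hoxa7 the share was 18.7%, with Hoxaas3. Hoxc8 shares 0.432% and Hoxc9 1.44%.

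The clusters also contain noncoding genes, of which 8 were tested, 4 higher and 4 lower. Hotairm1, the most abundant, was at 31.7, 14.4 and 33.4 FPKM in KO and between 18.0 and 33.6 FPKM in WT (-0.07, SE 0.34, limma, adjusted p = 0.952), and Hoxb3os was at 0.41 (SE 0.22, adjusted p = 0.513). The 1 of 8 with an unadjusted p under 0.05, against 6.19% of all genes lower at this threshold, was Mir196a-1, the hairpin of a microRNA between Hoxb9 and Hoxb13, at 6.51, 3.50 and 0 FPKM in KO and at 24.8, 31.7, 12.1 and 18.2 FPKM in WT (-2.73, SE 0.67, adjusted p = 0.286). Its mean normalised count, as the authors deposited it, was 3.71, so each value rests on a few fragments. These libraries do not measure mature microRNAs.

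MicroRNAs of the miR-196 and miR-10 families are encoded within the clusters and are known to repress Hox mRNAs. The mature sequences below, from RefSeq (GRCm38.p6), are shown because the first pair is the family of Mir196a-1. That hairpin averaged lower in KO, on a few fragments. The other hairpins of the family, Mir196a-2 and Mir196b, were not analysed here. Capitals mark the seed (bases 2 to 8), which is shared within each family.
mmu-miR-196a-5p: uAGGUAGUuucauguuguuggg
mmu-miR-196b-5p: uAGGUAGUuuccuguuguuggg
mmu-miR-10a-5p: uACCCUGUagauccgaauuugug
mmu-miR-10b-5p: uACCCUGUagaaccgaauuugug

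The match to the miR-196 seed, ACTACCT, was found on the mRNA strand in the longest annotated 3′ UTR of 9 of the 38 Hox genes (23.7%), against 6.76% of 17215 genes, at a median UTR length of 963 bases for the Hox genes and 1129 for all genes. They included Hoxa4, Hoxa5, Hoxa7, Hoxa9, Hoxb1, Hoxb6, Hoxb7 and Hoxc8. Hoxa7 had 4 matches and Hoxc8 had 2. The match to the miR-10 seed, ACAGGGT, was in 4 of 38 (10.53%), against 14.2% of all genes. The sites of Hoxa7 and Hoxc8 are shown as the members with matches and an unadjusted p under 0.05, with the seed match in capitals. The near complete match of Hoxb8 is shown beside them, with the bases opposite the seed in capitals.
Hoxa7, UTR base 296: ggcacagccaaaatACTACCTa
Hoxa7, UTR base 333: agaggcactcccaaACTACCTa
Hoxa7, UTR base 465: aaaccatgatcaatACTACCTa
Hoxa7, UTR base 486: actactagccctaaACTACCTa
Hoxc8, UTR base 121: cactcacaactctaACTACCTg
Hoxc8, UTR base 878: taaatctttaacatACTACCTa
Hoxb8, UTR base 418: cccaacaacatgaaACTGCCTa

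The Hoxb8 window pairs 21 of its 22 bases with miR-196a, with the remaining base as a G:U pair. Hoxb8 was at 27.3, 16.6 and 23.4 FPKM in KO and at 24.0, 25.1, 29.7 and 23.8 FPKM in WT (-0.21, SE 0.16, limma, adjusted p = 0.642). Of the 9 genes with a seed match, the log2 fold changes ran from -0.81 for Hoxc8 to 0.43 for Hoxb1. Hoxc9 and Hoxd8, which were lower at an unadjusted p under 0.05, hold no seed match in this UTR. A match is a description of the sequence and not a measured site.

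Cdx proteins are homeodomain regulators of the middle Hox genes. The mRNAs of Cdx1 and Cdx2 were near 0 FPKM in these embryos, whose tails had been cut off. RefSeq (GRCm38.p6) gave promoter windows of 300 bases (250 before and 50 after the start) for 22 of the 38 Hox genes, 24 windows in all. The letters TTTATG, part of the known Cdx motif, were found on either strand in 5 of 24 windows (20.8%), those of Hoxa7, Hoxb8, Hoxd3, Hoxd4 and Hoxd11, against 11.9% of 32851 promoter windows. The 250 bases before the RefSeq start are shown for Hoxa7 and Hoxb8, members of the middle numbers that hold the motif 2 times each. They are also shown for Hoxd10, which had the smallest p and holds none. Hoxd4 holds the motif 2 times in its 300-base window, but 1 time in the 250 bases before the start. The Hoxa7 window lies inside the gene as GENCODE places it (chr6:52214491-52221854, minus strand), so its RefSeq start is an internal one. Capitals mark the motif, as TTTATG or, on the other strand, CATAAA.
Hoxa7, chr6:52218574-52218823, minus strand: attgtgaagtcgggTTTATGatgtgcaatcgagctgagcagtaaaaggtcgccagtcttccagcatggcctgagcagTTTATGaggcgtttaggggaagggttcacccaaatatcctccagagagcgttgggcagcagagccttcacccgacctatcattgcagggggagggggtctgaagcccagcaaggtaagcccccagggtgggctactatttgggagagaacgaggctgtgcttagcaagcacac
Hoxb8, chr11:96281655-96281904, plus strand: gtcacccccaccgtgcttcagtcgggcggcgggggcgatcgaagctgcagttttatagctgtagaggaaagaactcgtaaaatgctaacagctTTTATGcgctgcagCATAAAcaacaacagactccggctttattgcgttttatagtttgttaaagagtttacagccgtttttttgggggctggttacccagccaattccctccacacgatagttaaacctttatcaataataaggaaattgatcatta
Hoxd10, chr2:74691641-74691890, plus strand: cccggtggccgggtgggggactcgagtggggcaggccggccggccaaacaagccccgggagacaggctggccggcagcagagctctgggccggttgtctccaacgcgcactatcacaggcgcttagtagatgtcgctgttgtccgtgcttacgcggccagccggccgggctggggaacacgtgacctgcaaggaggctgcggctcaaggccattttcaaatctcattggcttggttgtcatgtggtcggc

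Among the members with the motif, Hoxa7 and Hoxb8 averaged lower in KO and Hoxd3, Hoxd4 and Hoxd11 higher.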

How the data were processed

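Total RNA of 3 KO and 4 WT embryos was sequenced from TruSeq RNA v2 libraries. The authors deposited 1 FPKM value per gene and embryo, and the submitters' processing notes name Salmon, DESeq2, MultiQC and the build GRCm38, without versions. The authors also deposited a mean signal per gene, the mean of counts divided by size factors, used here only to estimate normalised counts. Their columns of fold change, standard error and p-values were not used. Counts per embryo were not used here and 0 FPKM columns were unmapped. The depth per embryo was therefore not known from the files, and sums of FPKM ran from 770063 to 861448. Median-ratio size factors of the FPKM values were equal in all embryos, so the values had already been scaled that way.

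Genes averaging at least 1 FPKM were tested for a genotype difference in limma (version 3.58.1, R 4.3.3) on log2(FPKM + 1) (eBayes with a trend, no covariate), with Benjamini-Hochberg adjustment over 16095 genes at a threshold of 0.05. A fold change on this scale understates that of low genes. Nothing states that the embryos came from separate litters, so p-values measure the spread between these samples. The steps were tested on simulated data. Slmap was also compared by an exact two-sided permutation test. The genes named were the highest of each cluster, numbers 1 and 13, the 8 smallest p-values, non-overlapping genes, and, from each companion list, the 2 smallest p-values, the highest mean and a few fixed genes. The members and lists were chosen with earlier results of these data known. Positions and UTRs came from GENCODE M21 on GRCm38. The alternatives were a pseudocount of 0.1, no filter, a minimum mean of 5 FPKM, median-ratio size factors, the label series as a block, Afp as a covariate, leaving out 3 liver-poor embryos, and leaving out each embryo. Counts by zone and cluster were added after seeing the data. The values of 1 Hox gene and 2 companion genes are not reported here, although they enter the counts.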

Additional observations from a re-analysis of the deposited data

Results flagged for a closer look

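In each of the 38 Hox genes, the highest and the lowest of the 4 WT embryos were compared with the others. In Hoxa6 the highest WT embryo stood apart. Hoxa6 was at 9.86 FPKM in WT embryo 1 and between 8.48 and 8.70 FPKM in the other 3 WT embryos, and the gap was 0.843 of the whole range, above the 95% critical value of Dixon's test. The KO embryos were at 10.6, 5.20 and 6.65 FPKM. Chance alone gives about 1 such gene in 20, or 1.9 of 38, and 1 was found.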

How the results depend on the processing

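With 3 and 4 embryos, the calls rested on single embryos. The count of 6 Hox genes with an unadjusted p under 0.05 was 3 of 24 with a minimum mean of 5 FPKM, where 11.7% of all genes passed, and ran from 0 to 10 when each embryo was left out, and 4, all lower, with the series block and 9, all higher, without the 3 embryos nearly lacking liver transcripts. The count with an adjusted p under 0.05 ran from 0 to 1 (Hoxc9, without KO embryo 1). The median log2 fold change of 0.04 was 0.23 without the 3 liver-poor embryos and ran from -0.11 to 0.17 with each embryo left out, and it was -0.02 with Afp as a covariate. It was -0.002 with the series block, 0.016 with no filter and 0.018 with a minimum mean of 5 FPKM. The number higher with paralog numbers 1 to 4 ran from 6 to 11 with each embryo left out, and that with numbers 9 to 13 from 6 to 9, and was 4 of 5 with a minimum of 5 FPKM. For numbers 5 to 8 the number lower ran from 8 to 11.

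Over 14 alternatives and 48 named genes, 24 of 655 fold changes reversed and 1 passed the adjusted threshold (Hoxc9). None of these genes passed it with all embryos, and median-ratio size factors could change nothing, so the other 630 say little about stability. With each embryo left out, the log2 fold change ran from -0.050 to 0.40 for Hoxd13, from -0.17 to 0.95 for Fgb, from -0.20 to 0.0084 for Tubb3, from -0.12 to 0.059 for Lhx2, from -0.028 to 0.070 for Cbx5, from -0.28 to 0.30 for Hotairm1, from -0.034 to 0.17 for T, from 0.0093 to 0.25 for Hoxd3, from 0.052 to 0.31 for Hoxa13, from 0.11 to 0.34 for Hoxa4 and from -0.055 to 0.098 for Evx2. Its range was also 0.018 to 0.145 for Gdf11, 0.17 to 0.39 for Hand2 and 0.24 to 0.63 for Hoxb3os. For Afp the range was 0.14 to 3.21 and for Calcoco1 -0.098 to -0.023. Without the 3 liver-poor embryos the log2 fold change was -0.20 for Afp, -0.27 for Fgb and -0.041 for Evx2. In that fit it was 0.12 for Gdf11, 0.73 for Hoxb3os and -0.13 for Calcoco1. With Afp as a covariate it was -0.26 for Fgb, 0.0016 for Lhx2 and 0.047 for Gdf11. With the series block it was 0.046 for Hotairm1, -0.034 for T, 2.45 for Afp and -0.023 for Calcoco1. The causes were not tested. The labels give the genotypes no shared replicate numbers, and the label series served as the block. Its fold changes were those of the fit without WT embryo 3.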
